A study of Mus musculus with 6 samples.

Results

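Short introns of 60 to 150 bases were followed through 6 RNA sequencing libraries of mouse embryonic dorsal root ganglia. An intron was taken from the deposited list of transcript features when its length lay within these limits and it overlapped no listed exon, and each interval was used once. In all, 18032 short introns met this rule, which was 10.5% of the 172008 introns of any length that overlapped no listed exon. They lay in 7531 genes, and 17910 of them carried a gene name of GENCODE M21, a catalogue of mouse transcripts. The rule used length and position only, so tag counts were no part of the choice.

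Introns are cut out of the primary transcript by the spliceosome, which reads a 5′ splice site that nearly always starts with GT, a branch point, and a 3′ splice site that ends with AG. Very short introns leave little room between these signals and are commonly recognised as a unit across the intron, whereas the exons between long introns are commonly recognised across the exon. An intron that stays in a polyadenylated RNA is called retained. Retained introns in coding sequence often bring an early stop codon, and such RNAs are held in the nucleus or degraded by nonsense-mediated decay.

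The ganglia, which hold the cell bodies of sensory neurons and their glia, came from 18 wild-type C57BL/6J embryos at embryonic day 14.5 and were pooled into 1 RNA stock. From this stock, cDNA was made at 3, 10 and 30 ng of total RNA in a high-volume reaction (RNA in 9 µl) and in a low-volume reaction (RNA in 1 µl), with 1 library for each combination. Each volume had its own SMARTer kit, so volume and kit cannot be told apart. All 6 libraries are technical repeats of the same pool, so the SDs and p-values here describe technical spread only, not differences among embryos. The libraries held 14160397 to 31524210 tags in the leading transcripts of genes, with the fewest in the 3 ng libraries. Of 7 sensory neuron markers all reached 10 RPKM (tags scaled to transcript length and library total), as did all 5 glial markers, while 4 of 5 spinal cord markers stayed below 1. Erythroid genes (3 of 5 at 10 RPKM or more), endothelial genes (2 of 4) and macrophage genes (3 of 4) were also present.

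Retention of an intron was expressed as a percentage: tags per base of the intron over tags per base of both flanking exons. The base sequence of a short intron could be read where a GENCODE M21 transcript of the same gene keeps the intron inside an exon, which held for 993 introns (5.51%). The 7 introns printed here had tags in all 6 libraries, lay between coding exons and were among the most retained of this kind. Clpp intron 1, with a mean retention of 4.81%, met the same conditions and is not printed. The 7 introns are shown 5′ to 3′ on the transcript strand as GENCODE M21 gives them for GRCm38, with the first 6 and the last 3 bases in capitals to mark the 5′ and 3′ splice sites.
Pgp intron 1, chr17:24471150-24471241, plus strand: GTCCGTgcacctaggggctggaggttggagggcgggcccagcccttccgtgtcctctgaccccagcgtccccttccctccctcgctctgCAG
Mettl26 intron 4, chr17:25876563-25876660, plus strand: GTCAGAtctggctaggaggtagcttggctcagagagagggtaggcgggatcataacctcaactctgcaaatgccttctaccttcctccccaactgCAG
Psmb10 intron 5, chr8:105936755-105936865, minus strand: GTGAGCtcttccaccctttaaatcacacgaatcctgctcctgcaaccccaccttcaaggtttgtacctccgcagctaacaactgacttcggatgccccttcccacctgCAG
Trappc4 intron 1, chr9:44406979-44407126, minus strand: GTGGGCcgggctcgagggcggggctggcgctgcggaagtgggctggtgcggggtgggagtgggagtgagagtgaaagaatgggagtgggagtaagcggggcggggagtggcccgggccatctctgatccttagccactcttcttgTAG
Fam173a intron 2, chr17:25791487-25791571, minus strand: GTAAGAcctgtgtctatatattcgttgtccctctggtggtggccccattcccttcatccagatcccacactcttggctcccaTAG
Cuta intron 4, chr17:26938618-26938726, minus strand: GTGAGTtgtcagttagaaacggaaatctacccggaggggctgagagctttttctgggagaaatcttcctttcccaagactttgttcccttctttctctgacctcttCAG
Sugt1 intron 1, chr14:79587867-79587953, plus strand: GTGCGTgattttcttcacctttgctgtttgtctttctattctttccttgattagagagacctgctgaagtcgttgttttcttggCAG
All 7 start with GT and end with AG, and their GC content ran from 41.4% in Sugt1 to 70.7% in Pgp. Read on in the frame of the exon before them, 5 of the 7 introns (Pgp, Mettl26, Trappc4, Cuta and Sugt1) met a stop codon inside the intron. The intron of Psmb10 is the exception: it held no stop in this frame and its 111 bases are a multiple of 3, so it would add codons without moving the frame. The intron of Fam173a held no stop in this frame, but its 85 bases are no multiple of 3.

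The 18032 short introns had a median length of 98 bases, with a lower quartile of 86. The most frequent length was 86 bases, with 459 introns. Lengths of 60 to 69 bases were rare (138 introns), 1682 introns had 70 to 79 bases, 4245 had 80 to 89, 3274 had 90 to 99 and 8693 had 100 to 150. Most of them (15217, or 84.4%) lay between coding exons. Genes of long, repeat-rich proteins held many: Ttn, the giant spring protein of muscle, had 166, the collagen gene Col7a1 had 73, the laminin gene Lama5 had 43, and Hspg2, which encodes the matrix proteoglycan perlecan, had 33.

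Reads from short introns were scarce. Over all 6 libraries 13799 of the 18032 introns had no tag, and the other 4233 held 18987 tags. Retention can be measured only where the gene is expressed, so the values that follow come from the 4585 short introns (25.4%) in 2199 genes whose flanking exons each had a mean of 20 or more tags per library. Of these, 2571 (56.1%) still had no intron tag in any library. A single library gave all the tags of 1014 introns, and 47 introns had tags in all 6. These 47 held 3682 of the 12404 tags, or 29.7%, and the 10 introns with the most tags held 16.1%. Among the 1431 named introns whose flanking exons each reached a mean of 100 tags, 610 had no tag, 714 had a mean retention below 1%, 88 lay at 1 to 5%, 11 at 5 to 10%, and 8 at 10% or more.

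Because the median retention was 0 in all 6 libraries, each class of introns was described by its pooled retention: its intron tags as a percentage of the tags that the same introns would hold at the density of their flanking exons. Pooled retention of the short introns was 0.243% in the 3 ng high-volume library, 0.232% at 10 ng and 0.223% at 30 ng. In the low-volume libraries it was 0.242% at 3 ng, 0.215% at 10 ng and 0.221% at 30 ng. The mean was 0.229% ± 0.0118 (SD, n = 6), so the 6 libraries lay close together and the volumes overlapped. High volume gave 0.233% ± 0.0100 and low volume 0.226% ± 0.0145 (n = 3 each, two-sided exact permutation p = 0.5, where 0.1 is the smallest p that 3 against 3 libraries allow). The log2 ratios of high to low volume were 0.01, 0.11 and 0.02 at 3, 10 and 30 ng.

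The libraries differed far more in how their tags were spread over the short introns. At 3 ng, 1316 tags fell on 179 short introns in the high-volume library and 1675 tags fell on 249 in the low-volume library. At 10 ng the corresponding numbers were 1967 tags on 789 introns and 2263 tags on 816. At 30 ng they were 2334 tags on 942 introns and 2849 tags on 1027. The 3 ng libraries therefore had 7.35 and 6.73 tags per intron with a tag, against 2.48 to 2.77 in the other 4. The gap remained when each library was scaled to the same 1316 tags in short introns: the number of short introns expected to hold a tag was 179 and 241 at 3 ng and 604 to 653 at 10 and 30 ng. The gap between 3 ng and the other inputs was also seen in introns of over 150 up to 1000 bases, with 12.5 and 14.4 tags per intron with a tag at 3 ng and 4.48 to 6.51 in the other libraries. Short introns with 5 or more tags in 1 library and none in the other 5 numbered 12 in the high-volume and 20 in the low-volume 3 ng library, against 0 or 1 in each of the others. Tags carry no molecular identifier, so many tags on an intron can be copies of few cDNA molecules.

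**Figure D1:**
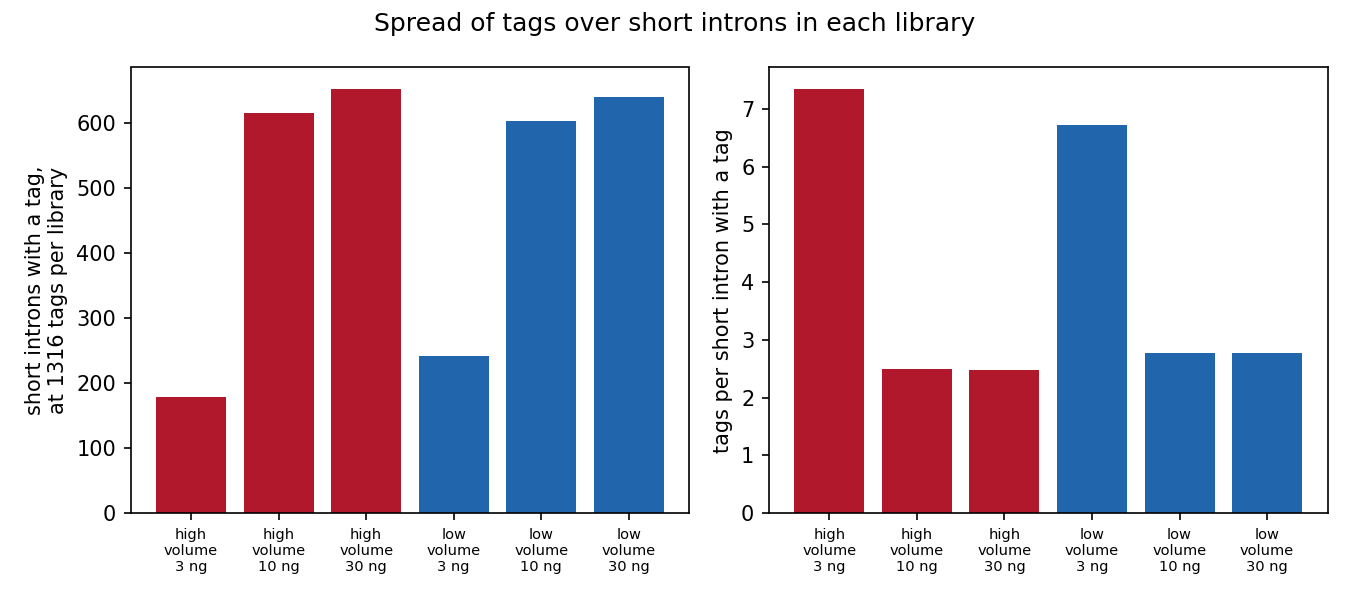
Each bar is 1 library; the left panel gives the number of short introns expected to hold at least 1 tag when every library is scaled to 1316 tags, and the right panel the tags per short intron with a tag. Both 3 ng libraries stand apart, with 179 and 241 introns against 604 to 653, and with 7.35 and 6.73 tags per intron against 2.48 to 2.77.

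The short introns were next set against longer ones. Pooled retention was 0.214% ± 0.0131 for the 11769 introns of over 150 up to 1000 bases, 0.241% ± 0.0251 for the 15497 of over 1000 up to 10000 bases, and 0.292% ± 0.0442 for the 1528 of over 10000 bases (SD, n = 6). The log2 ratio of short to longer introns was 0.10, -0.07 and -0.34 for these classes, with two-sided exact sign-flip permutation p = 0.156, 0.406 and 0.0625 over 6 libraries (adjusted over 11 comparisons of short introns p = 0.191, 0.447 and 0.115). None of the 3 passed the threshold, and only against the longest class was the ratio larger than its SD over the libraries (0.26). Within genes that hold both classes, the ratio to the longest class was -1.02, with short introns lower in 6 of 6 libraries (exact p = 0.031, adjusted p = 0.0573). With flanking exons of 100 or more tags the order against introns of over 1000 bases turned, and the ratio to introns of up to 1000 bases was 0.26. Short introns then had 0.149% against 0.125%, 0.0992% and 0.105%. They were higher in 6 of 6 libraries in each comparison (exact p = 0.031, the smallest that 6 signs allow, adjusted p = 0.0382). Few introns weigh much here: of the 6765 tags of these short introns, Trappc4 intron 1 held 414, Cuta intron 4 held 306 and Rpl36 intron 1 held 256. The comparison without the introns with most tags was not run at this filter.

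Retention was then followed in 5 bins of flanking-exon density, bins that were chosen after the data were seen. In every length class retention fell as the exons became more abundant. The density that set the bins is also the divisor of retention, so this fall cannot be told apart from the way retention is computed. For short introns it was 1.23% ± 0.392 below 0.2 tags per base, 0.685% ± 0.0674 at 0.2 to 0.5, 0.532% ± 0.0919 at 0.5 to 1, 0.355% ± 0.0244 at 1 to 5, and 0.0732% ± 0.00719 at 5 or more (SD, n = 6). In the lowest bin the short introns lay below all 3 longer classes in 6 of 6 libraries. At 1 to 5 tags per base they lay above all 3 in 6 of 6 libraries, with log2 ratios of 0.41, 0.61 and 1.27. At 5 or more the log2 ratios were 0.25, 0.77 and 0.78, again in 6 of 6 libraries (exact sign-flip p = 0.031, adjusted over the 15 comparisons p = 0.0426). The 10 short introns with the most tags were then left out while the longer classes kept all of theirs, a choice that favours lower values for short introns. The ratios in the top bin were then -0.27, 0.25 and 0.27. At 1 to 5 tags per base they were 0.07, 0.26 and 0.93, the last 2 with short introns higher in 6 of 6 libraries, and the lowest bin kept its ratios of -0.55 to -0.76. Leaving out introns of any length that overlap an exon of GENCODE M21 gave -0.07, -0.37 and 0.50 at 1 to 5 tags per base, and 0.49, 0.64 and 0.94 in the top bin, the latter in 6 of 6 libraries. In both settings fewer of the 15 comparisons reached the smallest possible p, and none passed after adjustment (smallest adjusted p = 0.067).

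**Figure D2:**
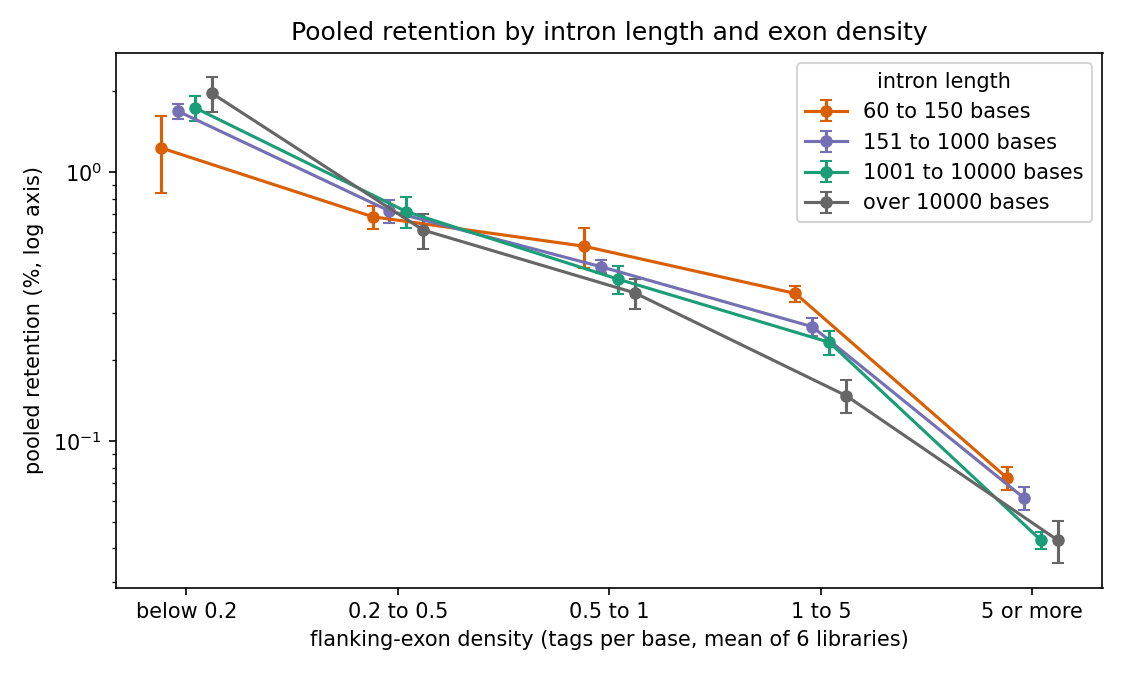
Pooled retention (percent, log axis) against the density of the flanking exons (tags per base, mean of 6 libraries) for 4 classes of intron length; points are means and bars the SD of 6 libraries. Retention of short introns fell from 1.23% in the lowest bin to 0.0732% in the highest, where the density on the axis is also the divisor of retention. The short introns lie lowest on the left and highest from 0.5 tags per base on.

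Within the short introns, length itself showed no steady course. The 31 measured introns of 60 to 69 bases had a pooled retention of 1.86% ± 0.380 (SD, n = 6). The 447 introns of 70 to 79 bases had 0.349% ± 0.0607, and the longer bins up to 150 bases ran from 0.12% to 0.291%. Just above the limit, introns of up to 160 bases had 0.317% ± 0.0738. Below the lower limit, 6 introns of 50 to 59 bases had 0.352%. Without introns that overlap an M21 exon, the shortest bin had 0.579% ± 0.201 (23 introns). The shortest intron with 100 or more tags in each flanking exon was intron 2 of Prss35, a serine protease gene, with 62 bases. The 7 of 150 bases (in Wdr18, Cltc, Hnrnpk, Sfxn3, Tpm3, Usp5 and Isyna1) had retentions from 0% to 1.98%, the last in Cltc, which encodes the clathrin heavy chain. Split at the median of 97 bases, longer and shorter introns had 0.229% ± 0.0202 and 0.230% ± 0.0288 (exact sign-flip p = 1).

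**Figure D3:**
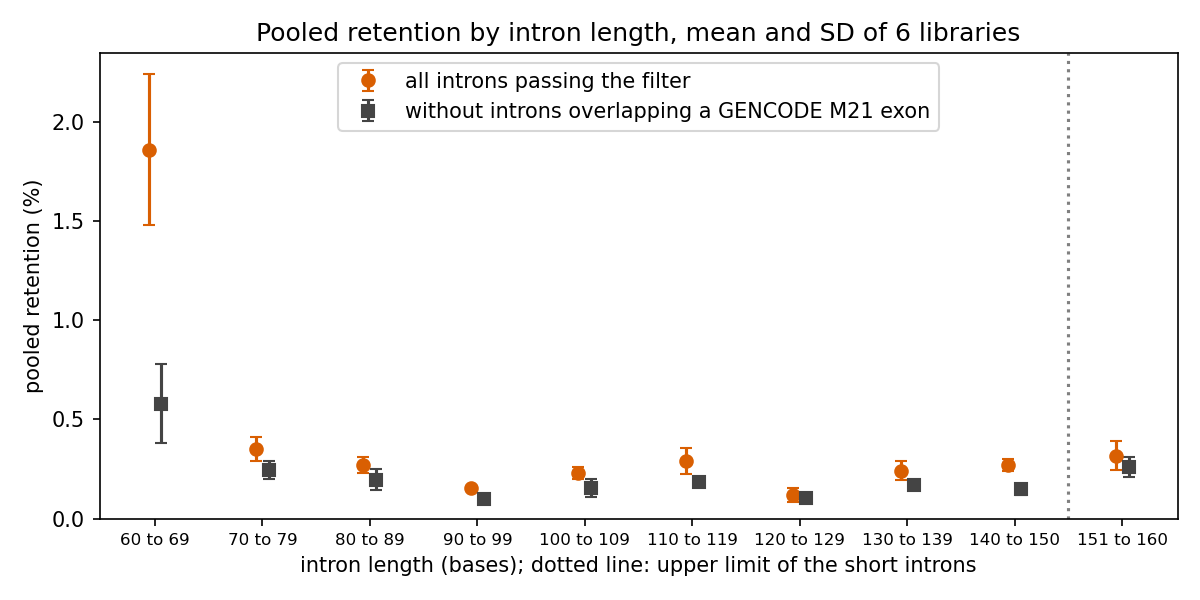
Pooled retention (percent) in bins of intron length (bases), as mean and SD of 6 libraries, for all introns passing the filter on flanking exons and for those that overlap no GENCODE M21 exon. The bin of 60 to 69 bases stands at 1.86%, or 0.579% without introns overlapping an M21 exon, while the bins from 70 to 150 bases lie between 0.12% and 0.349%.

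Position in the transcript was compared next. The 146 first introns had a pooled retention of 1.39%, 1.07% and 0.995% in the high-volume and 1.03%, 1.12% and 0.967% in the low-volume libraries at 3, 10 and 30 ng. The 4439 later introns had 0.192% ± 0.0104 (SD, n = 6), so the first introns were higher in every library, by 5.68-fold on average. Of the first introns 73.3% had a tag, against 40.5% of the 3773 internal introns. The median density of the flanking exons was 0.642 and 0.559 tags per base, and its part in these shares was not tested. Last introns (666) had 0.230% ± 0.0408 and internal ones 0.182% ± 0.00617, again higher in 6 of 6 libraries. In the exact sign-flip test both had p = 0.031, which 6 libraries cannot go below, and p = 0.0859 after adjustment over 11 comparisons, so neither passed the threshold of 0.05. The ratio of first to later introns depended on the exon chosen, with 4.12-fold over the denser and 9.69-fold over the weaker flanking exon. First introns were also higher with flanking exons of 100 or more tags (6.87-fold) and in the 10 and 30 ng libraries alone (5.52-fold, 4 of 4 libraries). Within genes that hold both first and later short introns the ratio was 2.85, in 6 of 6 libraries. For last introns, the ratio to internal ones was 1.06 within genes that hold both and 0.889 over the denser flanking exon.

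Coding context and the M21 annotation were set against retention in 2 comparisons added after the data were seen. Short introns between coding exons (4147) had 0.209% ± 0.0107, and the 438 others had 0.582% ± 0.0979 (SD, n = 6). An intron fell among the others when M21 gave the transcript used no coding sequence on both sides of it, so this class is mixed. The others were higher in 6 of 6 libraries. The 446 introns that an M21 transcript of the gene keeps inside an exon had 0.584% to 0.782%, and the 4139 remaining introns had 0.144% to 0.189%, so the ranges did not overlap. The ratio was 4.15 on average, above 1 in 6 of 6 libraries. Both comparisons had exact sign-flip p = 0.031 and adjusted p = 0.0859. Of the 50 named introns with the highest mean retention (flanking exons of 100 or more tags), 21 (42.0%) were kept in an M21 transcript, against 174 of all 1431 (12.2%). Of the 446 annotated introns 325 had a tag (72.9%), against 40.8% of the rest. Their flanking exons had a median density of 0.742 tags per base, against 0.542 for the rest, and its part in these shares was not tested.

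**Figure D4:**
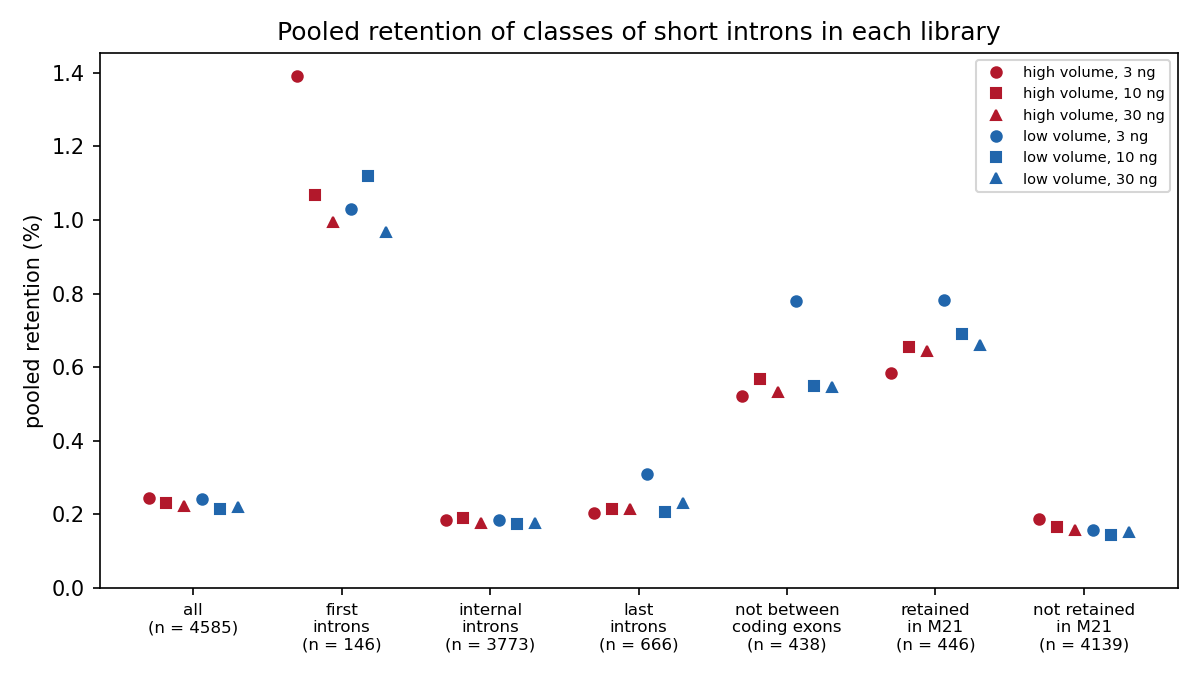
Pooled retention (percent) of classes of short introns, with 1 point for each of the 6 libraries and n the number of introns. First introns lie between 0.967% and 1.39% and internal introns between 0.175% and 0.191%; introns kept in a GENCODE M21 transcript lie between 0.584% and 0.782%, above all values of the introns not kept.

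Sequence features were compared where they could be read. Of the 993 introns held in an M21 exon, 964 (97.1%) had GT and AG ends, 10 had GC and AG, and 19 had other ends. Their median GC content was 56.4%, and that of their flanking exons 55.0%, close to the 54.3% of the flanking exons of all short introns. The reading frame could be followed into 894 of them. In 654 (73.2%) it met a stop codon within the intron, in 177 it met none but the length was no multiple of 3, and 63 had no stop and a length divisible by 3, called open here. Where the flanking exons passed, pooled retention was 0.618% ± 0.0704 for 307 introns with a stop and 1.08% ± 0.295 for 23 open introns (SD, n = 6). The lowest library of the open class (0.632%) lay within the range of the stop class (0.487% to 0.680%), and only 229 tags stood behind it. Psmb10 intron 5 held 65.9% of these tags, and without it the other 22 open introns had 0.396% ± 0.128, below the introns with a stop. Coding introns of a length divisible by 3 (1328) had 0.193% ± 0.0150 against 0.217% ± 0.0190 for the other 2819 (exact p = 0.156, adjusted p = 0.191). Introns between exon edges AG and G, the most usual exon bases at splice sites, had 0.198% ± 0.0283 against 0.242% ± 0.0108 (exact p = 0.0625, adjusted p = 0.115). Flanking exons of GC content above the median of 54.1% had 0.217% ± 0.0286 against 0.188% ± 0.0128 (exact p = 0.125, adjusted p = 0.191). None of these 3 differences passed the threshold, and of the 3 only the log2 ratio for the exon edges (-0.30) was larger than its SD over the libraries (0.19).

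Single introns showed what these averages are made of. Trappc4, a subunit of the TRAPP complex that tethers transport vesicles, had the most tags of the introns printed above, 414 in its first intron. Its retention was 14.7%, 13.0% and 15.2% in the high-volume and 8.73%, 12.7% and 10.6% in the low-volume libraries at 3, 10 and 30 ng (mean 12.5% ± 2.45, SD, n = 6). All 6 libraries held 41 or more tags of it. The high-volume values (13.0% to 15.2%) lay above the low-volume ones (8.73% to 12.7%), but no short intron passed in the test of volume given below. The mean retention of Trappc4 depends on the exon chosen: over the weaker flanking exon alone it was 39.1%. Cuta intron 4, with 306 tags, had 4.17%, 7.21% and 5.54% in the high-volume and 5.76%, 8.92% and 7.52% in the low-volume libraries, a mean of 6.52% ± 1.69. For Cuta the values of both volumes overlapped, with low volume higher at each input.

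Psmb10, a catalytic subunit of the immunoproteasome, kept the open-frame intron 5 at 7.10%, 22.3% and 16.1% in the high-volume and 28.9%, 10.8% and 16.6% in the low-volume libraries (mean 17.0% ± 7.86). The lowest and the highest value were both from 3 ng, with 5 and 29 tags. Mettl26 intron 4 had 17.9% ± 6.68 with 113 tags, and Fam173a intron 2 had 9.32% ± 3.79 with 78 tags. Pgp, a phosphatase of sugar-phosphate metabolism, has a single intron, which had 22.1% ± 13.3 on 28 tags, and its values ran from 5.19% to 36.7%. Sugt1, a co-chaperone of HSP90, had 4.29% ± 1.48 in intron 1 with 45 tags. Of the other introns kept in M21 transcripts, Prss35 intron 2 had 38.2% ± 36.1, with 0 tags in the 30 ng high-volume library and 90.3% in the 3 ng high-volume library, so its mean says little. Clpp, a mitochondrial protease, had 4.81% ± 5.17 in intron 1 with tags in 6 libraries, and 20 of its 51 tags were in the 3 ng high-volume library. Kat5, Bet1l, Sdhaf2, Mrpl43, Ndufaf3 and Cfl2 had means of 4.00% to 8.32%, each with no tag in 1 of the 3 ng libraries. Without the 3 ng low-volume library Kat5 had 4.29%, Bet1l 4.45%, Mrpl43 1.92% and Cfl2 2.33%, and without the 3 ng high-volume library Sdhaf2 had 2.39% and Clpp 2.95%. The introns of this group were chosen after their values had been seen.

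Among named introns whose flanking exons each had a mean of 100 or more tags, those with the highest retention that no M21 exon overlaps were led by Bclaf1 and Araf. Intron 5 of Bclaf1, a nuclear protein of RNA processing (chr10:20325806-20325929), had 15.5%, 27.7% and 18.1% in the high-volume and 4.56%, 23.2% and 26.2% in the low-volume libraries (mean 19.2% ± 8.56, SD, n = 6). The 4.56% of the 3 ng low-volume library rested on 2 tags. Araf, a kinase of the RAF family in the MAP kinase cascade, had the steadiest value of the group in intron 4 of its leading transcript (chrX:20851813-20851929). It was 16.7%, 18.2% and 18.7% in the high-volume and 19.3%, 13.0% and 16.7% in the low-volume libraries, a mean of 17.1% ± 2.28 with 13 to 38 tags in each library. Mettl26 intron 2, in the same gene as the intron printed above, had 7.26% ± 4.99 with tags in all libraries, and 17.0% in the 3 ng high-volume library against 3.42% to 7.86% in the other 5.

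The remaining 12 of the 15 introns in this group lacked tags in at least 1 library. Srm, which encodes spermidine synthase, had 21 tags in the 3 ng high-volume library and 0 in each of the other 5, so its mean of 5.72% ± 14.0 is that of 1 library. Exosc4, a core subunit of the RNA exosome, had 5.63% ± 5.61 with 23 tags in intron 2, and Osbpl9, an oxysterol-binding protein, had 3.98% ± 4.25 with 23 tags in intron 23. Rnf167, a membrane ubiquitin ligase, had 3.96% ± 3.71, and Arpc1b, a subunit of the Arp2/3 actin nucleator, had 3.69% ± 2.73. Gm26809 had a mean of 15.9% on 8 tags in all, and 4.53% without the 3 ng low-volume library. Without that library Exosc4 had 3.71%, Arrdc1 3.62% and Nrd1 1.15%. Without the 10 ng high-volume library Osbpl9 had 2.64%, without the 30 ng high-volume library Ogfod2 had 2.20%, and without the 30 ng low-volume library Rsrp1 had 1.59%. Arrdc1, Fuom, Nrd1, Ogfod2, Rsrp1 and Ccdc107 had means of 3.41% to 5.72% on 5 to 15 tags. For all of these the SD is near or above the mean or the tags are few, so their order is not resolved.

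**Figure D5:**
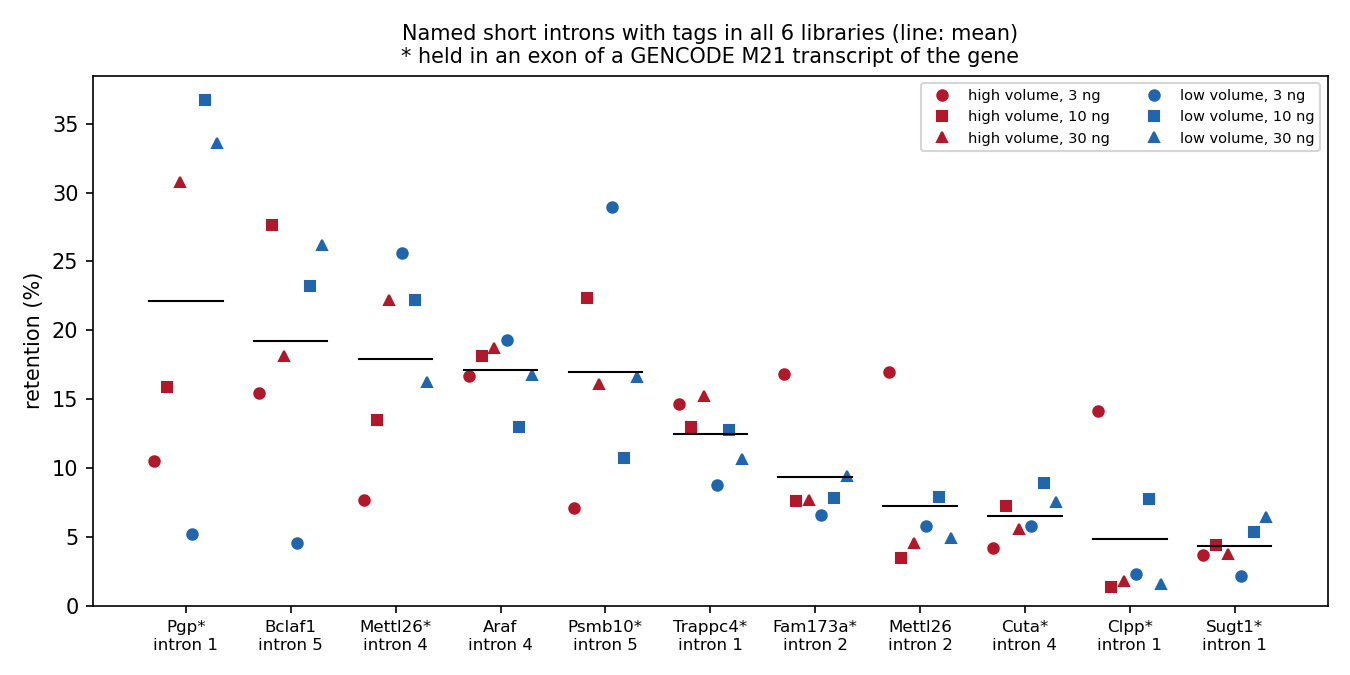
Retention (percent) of the named short introns with tags in all 6 libraries, with 1 point per library, the mean as a line, and a star for introns held in an exon of a GENCODE M21 transcript. Araf (13.0% to 19.3%), Trappc4 (8.73% to 15.2%) and Cuta (4.17% to 8.92%) have the least relative spread, and 3 ng libraries give many of the most distant points.

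Gene groups of the ganglion and of the splicing machinery were described by counts, beside all measured short introns, of which 43.9% had a tag at a median flanking-exon density of 0.556 tags per base. Cytosolic ribosomal protein genes had 42 measured short introns, of which 39 had a tag, and their exons had a median density of 27.2. Their pooled retention was 0.0778% ± 0.0255 (SD, n = 6). Rpl36 intron 1, which is not between coding exons, was the most retained of these at 1.18% ± 0.540, with 32 to 54 tags in each library and 256 of the group's 658 tags. The embryonic globin gene Hbb-y, whose flanking exons had means of 23228 and 9087 tags per library, had 6 tags in intron 1, or 0.0115% ± 0.0129. Actb intron 5 had 15 tags beside exons of 158961 and 8781 tags, or 0.0138% ± 0.0194. Aldoa, a glycolytic enzyme, had 1 tag in intron 8.

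Of 39 measured short introns of the neuronal cytoskeleton group, 15 had a tag and the pooled retention was 0.0241% ± 0.0143, with Dync1h1 intron 58, of the dynein motor, highest at 1.55% ± 2.69 on 4 tags. Among 14 introns of sensory neuron genes 4 had a tag. Scg3, a granin of secretory granules, led with 1.55% ± 1.63 in intron 3, and intron 7 of Th, the enzyme that makes the precursor of catecholamines, had no tag beside exons of 686 and 706 tags per library. A count of 0 allows up to 3 tags over the 6 libraries, counting error only, which for Th is a retention of up to 0.145%. This limit and those given below take tags as independent, and would be wider where tags are copies of few cDNA molecules. Collagen genes held 201 short introns, of which 34 in 4 genes were measured and 8 had a tag. Col1a1 intron 50 had none (up to 0.182%), and Col3a1 intron 19 had 6 tags.

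Among genes of the splicing machinery, SR proteins and their kinases had 8 of 11 short introns with a tag and 0.216% ± 0.259, hnRNP genes 26 of 35 and 0.0743% ± 0.0727, and major spliceosome genes 12 of 48 and 0.198% ± 0.127. Clk1, a kinase of SR proteins, had 2.73% ± 3.92 in intron 6, with tags in 3 of 6 libraries. Srsf3 intron 5 had no tag (up to 0.293%), Hnrnpc intron 8 had 2, Hnrnph3 intron 9 had 2, Sf3a2 intron 8 had 5 and Sf3b6 intron 3 had 4. In the minor spliceosome group, Zcrb1 and Scnm1 each had 2 tags in the named intron, and for nonsense-mediated decay Rbm8a, a core protein of the exon junction complex, had 6 tags in intron 2 and 1 in intron 5. Proteasome genes had 21 of 37 introns with a tag and 0.149% ± 0.0502. Of their 228 tags most lay in Psmb10 intron 5, described above, while Psmb6 intron 5 had 0.0846% ± 0.144. Aminoacyl-tRNA synthetase genes had 22 of 43 and 0.194% ± 0.197, with 10 of the 11 tags of Qars intron 16 in the 3 ng low-volume library and 1 tag in Kars intron 10. Glycolytic genes had 8 of 21, with Aldoc intron 8 highest at 1.94% ± 2.07. Among 4 introns of spliced noncoding RNAs, Snhg5, a host of small nucleolar RNAs, had 20.1% ± 16.4 in intron 1 with 0 tags in the 3 ng low-volume library and 8 to 18 in the others, whereas H19 intron 4 had none (up to 0.0595%).

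Whether the reaction or the input changed retention was tested for the 265 short introns with 10 or more tags, in a fit over all 14655 such introns of any length. For reaction volume, 0 of 265 short introns passed an adjusted p of 0.05 by edgeR's quasi-likelihood test, where 2 of all introns were called (0.0136%). At an unadjusted p under 0.05 there were 7 short introns by edgeR, 2 by DESeq2 and 17 by limma. Among all 14655 introns there were 357, 379 and 750 by the same tools. No short intron passed after adjustment by any of the 3 tools. For RNA input, 0 of 265 passed and 4 of all introns were called (0.0273%). At an unadjusted p under 0.05 there were 13, 2 and 23 short introns by edgeR, DESeq2 and limma, and 696, 1601 and 2431 among all 14655 introns. The smallest adjusted p among short introns was 1 for volume and 0.675 for input in edgeR.

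For volume, the introns with the smallest p were Psmd6 intron 7, Srp14 intron 1, Fbxl6 intron 4, Ube2d2a intron 3 and Dalrd3 intron 8, which had 10 to 15 tags, all in low-volume libraries (edgeR adjusted p = 1 for each). Srp14, a protein of the signal recognition particle, had 9, 3 and 3 tags at 3, 10 and 30 ng in low volume and 0 in the 3 high-volume libraries. Fbxl6 and Ube2d2a each had 10 of 12 tags in the 3 ng low-volume library. For input, they were Ccng1 intron 4, Eif5b intron 2, Ptpn5 intron 12, Ehmt1 intron 26 and Srm intron 5 (edgeR adjusted p = 0.675 for each). Eif5b, Ptpn5, Ehmt1 and Srm had all of their 13, 10, 14 and 21 tags in the 3 ng high-volume library, and Ccng1 had 9 of 10 there. These 5 patterns rest on 1 library each, and there is no second library at that input and volume to set beside it.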

How the data were processed

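Each deposited file lists transcripts, exons and introns of 1 library with a tag count and an RPKM value. The tag counts are the authors' whole-number counts per interval, per the file headers. The RPKM values are the authors' scaling of these counts by length and library total, per the file headers, and were used for the marker genes only. The submitters' processing notes name GRCm38.p1 as the build and list Bowtie2 2.1.0, TopHat2 2.0.8 and CASAVA 1.8 as tools. How tags were counted, and what was done with reads of several matches, is not given in the sources used here. In all 2695 stretches where an exon, an intron and an exon are also listed as 1 exon, the counts of the parts summed to that of the whole, so each tag was counted at 1 position. Rows of 1 interval on both strands carried equal counts (49 such intervals with tags), so the counts did not use strand, and tags of antisense or overlapping transcripts cannot be told apart. Where a tag that crosses an exon edge was counted is not stated, and its part in the values of short introns was not tested.

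Intron numbers, flanking exons and their tags come from the transcript with the most tags among those with that intron. Retention was tested with edgeR 4.0.16 in R 4.3.3, with the flanking-exon tags (plus 0.5) as offset, reaction volume and centred log2 input as terms and 3 residual degrees of freedom, and Benjamini-Hochberg adjustment over 14655 introns. The fit was also run on simulated counts, but the outcome is not given here and lends no support to the numbers that passed or did not pass. DESeq2 1.42.0 and limma 3.58.1 were alternatives. Classes were compared by an exact sign-flip test of the log2 ratio over 6 libraries, adjusted over 11 comparisons, 2 of which were added later. A ratio of medians had been planned, but all medians were 0, so pooled retention replaced it. Named introns are the 15 most retained (flanking exons of 100 or more tags, no overlapping exon, 1 per gene), the most retained and the one with most flanking tags in each of 14 gene groups, the 5 smallest p for volume and for input, and the shortest and longest. An intron that these rules name is not reported here. The introns kept in M21 transcripts were named by the first of these rules, applied later. The short introns, gene groups and tests were chosen with earlier results of these data known. Sequences and names came from GENCODE M21, matched by coordinates on GRCm38. Coordinates are 1-based. No genome sequence was used here.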

Additional observations from a re-analysis of the deposited data

How the results depend on the processing

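No short intron passed for volume or input under any of the alternatives run, leave-one-out included. With the input as a replicate block the number of short introns past the threshold for volume stayed 0. The labels give no replicate numbers, and libraries of equal input share only that input. The block together with an offset for intron GC content was not run, since no genome sequence was used. Centring each library on its median moved the calls for input among all introns from 4 to 67. The cause of the changes listed here was not tested. Changes in comparisons are given as log2 ratios, and the longer classes are named by their upper limit. They are ratios of pooled retention, except for the plain ratio and the mean of the introns. The plain ratio sets all intron tags per base against all flanking tags per base. The mean of the introns averages the retention of single introns.

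Flanking exons of 100 or more tags turned 4 values: high against low volume (-0.038), short introns against up to 10000 bases (0.595) and over 10000 bases (0.52), and flanking GC (-0.087). Both length classes passed in the turned direction. A further 7 passed: short introns against up to 1000 bases (0.26), longer against shorter members (0.48), first against later introns (2.78), last against internal introns (0.52), exon edges AG and G (-0.41), retained in M21 (2.15), and coding (-1.44). The plain ratio of all tags turned the comparison with up to 1000 bases (-0.077) and length (-0.16). The mean of the introns turned that comparison (-0.31) and length (-0.36), both past the threshold, and GC (-0.15) and multiples of 3 (0.089). Also past the threshold here were up to 10000 bases (-0.43), over 10000 bases (-0.33), first introns (2.14), last introns (1.15), retained in M21 (1.84) and coding (-0.80). Every comparison that passed in any setting had the smallest p that 6 libraries allow (exact sign-flip p = 0.031). Passing thus followed how many of the 11 comparisons reached that p, and is no measure of a larger ratio. First introns, last introns, retained in M21 and coding had this p in the main setting too. Without the 10 short introns with most tags, and with all longer introns kept, up to 1000 bases (-0.14) turned, as did length (-0.36), which passed. Over 10000 bases (-0.57), GC (0.34), first introns (2.19), last introns (0.33), multiples of 3 (-0.32), retained in M21 (1.70) and coding (-1.28) passed. Genes holding both classes turned length (-0.23) and GC (-0.29). Leaving out introns that overlap an M21 exon turned up to 1000 bases (-0.12), length (-0.069) and GC (-0.10). The denser flanking exon turned last introns (-0.17). Leaving out 1 library at a time, length ran from -0.05 to 0.10 and changed sign, and no other class comparison did. With 5 libraries the sign-flip test cannot pass. Over the weaker flanking exon, Pgp intron 1 had 52.1%, Sugt1 intron 1 had 8.09%, Ndufaf3 intron 1 had 8.28% and Araf intron 4 had 19.98%.

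Depth limits single introns: in Kat5 intron 13, 2 tags in the 10 ng high-volume library stood for a retention of 3.87%.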
